A study of Mus musculus with 4 samples.

Results

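The comparison described here is that of the RNAi arms in wild-type (WT) neurons: the library coded WT TTC against the library coded WT SC, over all 6352 transcripts of the authors' table. These are 2 of the 4 libraries of the series, chosen by their column codes and not by any measured value. Both came from primary cultured mouse cortical neurons that received an RNAi and then harringtonine, at 5 µg/ml for 3 min, before ribosome footprints were sequenced. The other 2 libraries, KO SC and KO TTC, carried the same codes in neurons lacking Ltn1 (Ltn1 KO). Each library stood alone for its genotype and arm, so no difference below has a replicate check. The labels of the arms conflict. Titles and characteristics give Control or Scrambled RNAi for WT TTC and Ttc3 RNAi for WT SC, whereas the letters of the codes spell the reverse. Libraries are therefore named by their codes, every ratio is WT TTC over WT SC unless stated, and no direction is assigned to the knockdown. Nothing in the labels gives the number of animals or cultures behind a library.

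TTC3 is an E3 ubiquitin ligase with tetratricopeptide repeats, encoded in the Down syndrome region in humans, that binds phosphorylated AKT and promotes its degradation. LTN1 and NEMF act in ribosome-associated quality control (RQC), which ubiquitinates nascent chains left on 60S subunits after a ribosome has stalled and split. Harringtonine holds ribosomes that have just assembled on a start codon while elongating ribosomes run off. Footprints at a start codon depend on how often it is used and on how much mRNA there is. None of the 4 libraries measures mRNA, so these cannot be told apart. The comparison asks how initiation-site footprints differed between the RNAi arms when RQC was intact.

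Values were RPM, in which the authors scale the reads at a site to all reads of the library, and every one was a whole multiple of 1 read within 1e-06. The reads thus recovered were 2096153 in WT SC and 1460425 in WT TTC, of which the listed sites held 6.38% and 6.85%. A single read was worth 0.477 RPM in WT SC against 0.685 RPM in WT TTC. Depth was shallow at most sites, with a median of 6 reads in WT SC and 4 in WT TTC and with 1600 and 1801 transcripts at 0. Intervals below are exact 95% intervals for counting error only, and the reads carry no stated molecular identifiers.

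The reads at the targeted gene could not settle the labels. Ttc3 (ENSMUST00000117648.8, chromosome 16, 94370625 to 94469222 of GRCm38) had 3 reads in WT SC, 1.43 RPM, and 0 reads in WT TTC, which allows up to 2.05 RPM by a floor of 3 reads. Both values lay at or under that floor, so no fold is given. In the Ltn1 KO pair, KO SC held 2 Ttc3 reads and KO TTC held 0. The study's own list of differences between Ltn1 KO and WT names no RNAi, and recomputing it from the RPM of each pair of libraries showed that it was made from KO SC and WT SC. That is the use a control arm would have, as the code letters spell it and against the titles. An RNAi acts on mRNA, and the footprints at 1 start site need not follow it. Ltn1 had 10 reads in WT SC, 4.77 RPM, and 2 in WT TTC, 1.37 RPM, against 37 reads in KO SC with 0 in KO TTC. What the deletion removes from Ltn1 is not given in the sources used here, so its reads in KO SC check nothing.

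Of the measured sites, 77.3% lay within 2-fold between the WT libraries on the log2(RPM + 1) scale, and those called were split between the directions. A transcript was measured when it had at least 10 reads over both WT libraries, and called when the RPM ratio was at least 2-fold and its interval left out 1. Of 3296 measured transcripts, 310 (9.41%) were called higher in WT TTC and 271 (8.22%) lower, 581 (17.6%) in all. The median difference in log2(RPM + 1), WT TTC minus WT SC, was 0.05 over measured transcripts, with quartiles of -0.49 and 0.57. Scaling both libraries to the same sum over the listed sites shifts log2 ratios by -0.10, more than this median, so its sign depends on the scale. Calls thinned out with level: of 138 transcripts at a mean of 50 to 100 RPM, 6 were higher and 1 lower, and of 91 at 100 RPM or more, 4 were higher and 0 lower. Under 5 RPM, in contrast, 86 were higher and 135 lower of 935. With 0 reads in the other library, the minimum of 10 reads is 4.77 RPM in WT SC but 6.85 RPM in WT TTC. The filter thus admits lower sites at levels where it leaves out higher ones, and these 2 counts depend in part on depth. A mean Pearson statistic of 4.15 over the 2226 transcripts with at least 20 reads, against 1 for counting error alone, shows that the libraries differed by more than counting. The calls compare these libraries, not the conditions. An edgeR quasi-likelihood fit of genotype and code over the 4 libraries, with 1 residual degree of freedom, called 0 of the 3296 in either direction at an adjusted p of 0.05, with 325 higher and 162 lower at an unadjusted p under 0.05. A two-sided exact binomial test on reads with Benjamini-Hochberg adjustment called 375 higher (7.02% of 5345 transcripts with reads) and 204 lower (3.82%).

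**Figure D1:**
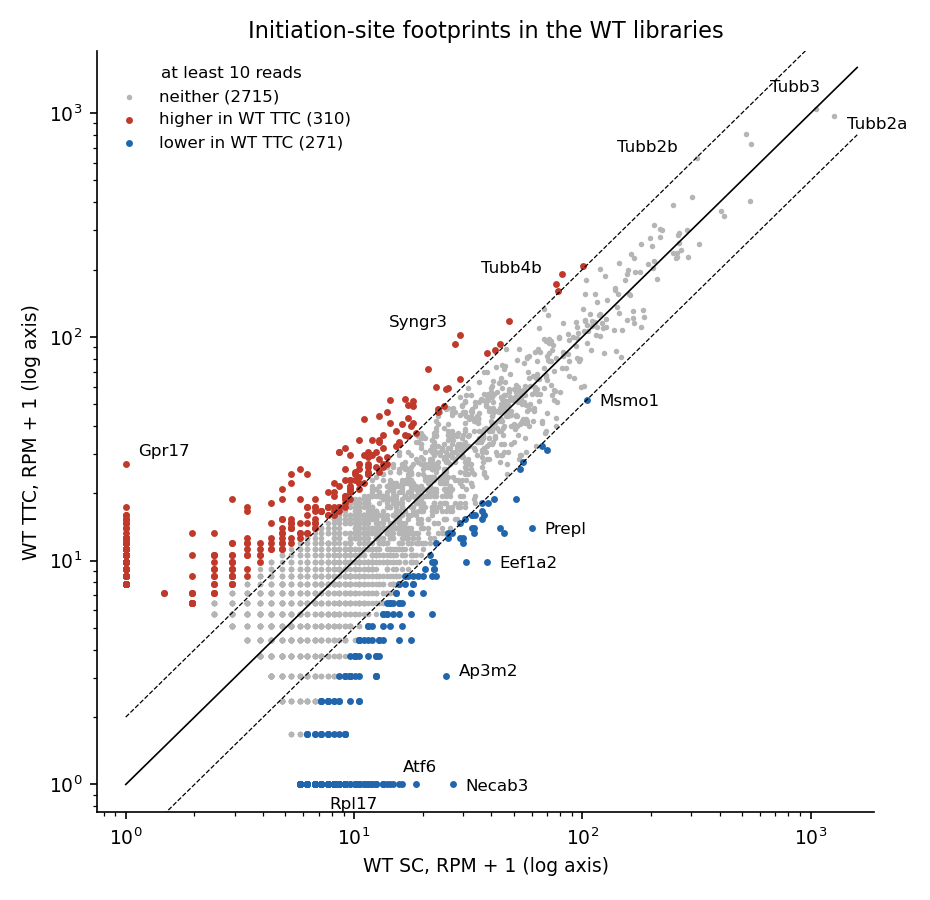
RPM + 1 at the initiation site in WT SC (horizontal log axis) and WT TTC (vertical log axis) for the 3296 measured transcripts, 1 point each, with the solid line at equality and dashed lines at 2-fold on the plotted scale. Points called higher in WT TTC (310) and lower (271) lie mostly at low RPM, and 126 of the lower ones sit at 0 reads in WT TTC.

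The sites with the highest RPM included those of tubulins, actin and a pump subunit, and none of the 5 highest in either library was called. Tubb3, the neuronal beta-tubulin, had 1057 RPM in WT SC against 1043 RPM in WT TTC. Tubb2a, the site with most reads in WT SC, had 1267 RPM there and 970 RPM in WT TTC, a ratio of 0.765 (0.717 to 0.816). Tubb2b, its close paralog, went the other way, from 316 RPM to 631 RPM, and its ratio (interval 1.81 to 2.21) fell just short of the 2-fold limit. Tubb4b, at 75.4 RPM and 172 RPM, passed it (2.28, 1.86 to 2.80). The beta-tubulins therefore did not move as one. They are near-identical in sequence, and how reads shared between copies were counted is not given in the sources used here, so their separate values are uncertain. Actb, beta-actin, went from 521 RPM in WT SC to 803 RPM in WT TTC, and Atp1b1, the sodium pump beta subunit, 545 and 724 RPM.

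Among transcripts at a mean of at least 10 RPM (1393 measured, 126 called higher, 63 lower), the 15 with the largest differences included genes of synaptic vesicles, endosomes, actin and transport. Syngr3, the synaptic vesicle protein synaptogyrin 3 (chromosome 17, 24685092 to 24689949), had 59 reads in WT SC, 28.1 RPM (21.4 to 36.3), and 147 reads in WT TTC, 101 RPM (85.0 to 118). Its ratio was 3.58 (2.63 to 4.92), and the intervals of the levels did not overlap. Rab7, a GTPase of late endosomes, went from 4.77 RPM in WT SC to 24.7 RPM in WT TTC, 5.17-fold higher (2.51 to 11.7). Dbnl, the actin-binding drebrin-like protein, had 13.4 RPM and 51.4 RPM (3.84, 2.46 to 6.17). WT TTC was the high library for each of these. Tnpo2, a transportin that carries cargo into the nucleus, had 10.0 RPM and 41.8 RPM (4.17, 2.50 to 7.21). Slc1a1, the neuronal glutamate transporter EAAC1, went from 8.11 RPM in WT SC to 30.8 RPM in WT TTC (3.80, 2.13 to 7.08). Selenos, a selenoprotein of endoplasmic reticulum (ER)-associated degradation, had 4.29 RPM and 23.3 RPM (5.42, 2.55 to 12.9). Sirt2, an NAD-dependent deacetylase, Dact3, a regulator of Wnt signaling, Sap18, a Sin3 complex subunit, and H1f2, a linker histone, lay between 3.62-fold and 5.20-fold higher. Gpr17, the largest difference of all, is described with the oligodendrocyte genes. Lrrc58, Npcd and ENSMUST00000071852.9 also belonged to the set, at 4.66-fold, 3.86-fold and 4.44-fold.

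The 15 largest differences in the other direction held genes of calcium binding, vesicle traffic, elongation and postsynaptic signaling. Necab3, an EF-hand protein that binds calcium (chromosome 2, 154544391 to 154559406), had 55 reads in WT SC, 26.2 RPM (19.8 to 34.2), and 0 reads in WT TTC. Against a floor of 3 reads it was at least 12.8-fold lower in WT TTC. Here and below, such a fold is the ratio to that floor and not a confidence limit. Ap3m2, the neuronal medium subunit of the AP-3 adaptor, had 51 reads and 3 reads, with a ratio WT SC over WT TTC of 11.8 (3.83 to 59.3). Prepl, the prolyl endopeptidase-like hydrolase (chromosome 17, 85062511 to 85090504), had 124 reads in WT SC, 59.2 RPM (49.2 to 70.5), and 19 in WT TTC, 13.01 RPM (7.83 to 20.3), 4.55-fold lower (2.79 to 7.81). WT SC was the high library in all 3, with intervals apart. Eef1a2, the elongation factor isoform of mature neurons, went from 37.2 RPM in WT SC to 8.90 RPM in WT TTC, 4.18-fold lower (2.31 to 8.20). Its paralog Eef1a1 had 21.5 RPM and 32.2 RPM and was not called. Dnm1l, the GTPase that drives mitochondrial fission, had 44.4 RPM and 12.3 RPM (3.60-fold lower, 2.16 to 6.34). Lrrtm1, a postsynaptic adhesion protein, had 21.0 RPM and 4.79 RPM, and Kctd12, an auxiliary subunit of GABA-B receptors, 50.1 RPM and 17.8 RPM. Calb2, calretinin, Tuba4a, an alpha-tubulin, Atp6v1c1, a subunit of the vacuolar proton pump, Slc39a10, a zinc transporter, Pde1a, a calmodulin-dependent phosphodiesterase, Kat2a, a histone acetyltransferase, Snapc1, a subunit of the snRNA gene activator, and ENSMUST00000020263.13 were 2.66-fold to 4.88-fold lower. These 30 transcripts were chosen by the difference itself, so their size is a description.

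**Figure D2:**
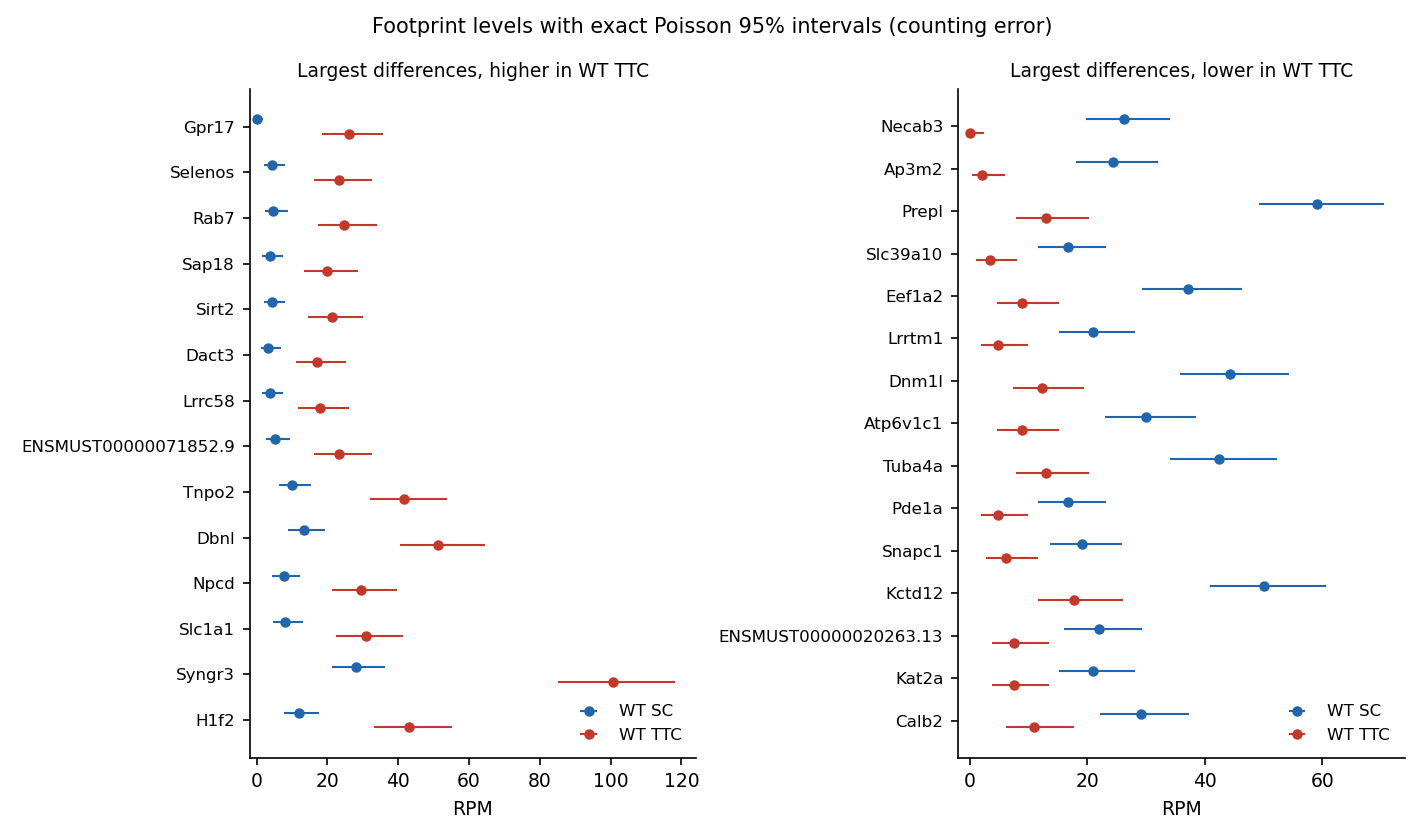
RPM at the initiation site (horizontal axes) of transcripts among the 15 with the largest called difference in each direction (rows) in WT SC and WT TTC, as points with exact Poisson 95% intervals. Syngr3 reaches 101 RPM in WT TTC against 28.1 RPM in WT SC, and Necab3 stands at 0 RPM in WT TTC against 26.2 RPM in WT SC.

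Genes of RQC and UFMylation, the ligation of the ubiquitin-like protein UFM1 to targets such as ribosomal protein RPL26, had lower RPM in WT TTC at 8 of 12 measured members. Of these 12, 4 were called lower and 1 higher (8.22% and 9.41% of all measured transcripts), and the median difference was -0.87 on the log2 scale, against 0.05 over all measured transcripts. Ufsp2 and Nemf reached the minimum of 10 reads through WT SC alone, the library in which they were higher. Ufc1, Nploc4, Ddrgk1 and Ltn1 also had at least 10 reads in WT SC and fewer than 10 in WT TTC. Every member called lower thus passed the filter through the library in which it was higher. The counts and the median therefore depend in part on the filter. Ufsp2, the protease that matures UFM1 and takes it off its targets, had 17 reads in WT SC and 0 in WT TTC, at least 3.95-fold lower. Ufc1, the UFM1-conjugating enzyme, had 11.4 RPM and 2.74 RPM (4.18-fold lower, 1.44 to 16.6). Nemf, which marks stalled nascent chains on the 60S subunit, had 11 reads and 0 reads, at least 2.55-fold lower against the floor with an interval that starts at 1.75, and Nploc4, a cofactor of the extracting ATPase VCP, 11.4 RPM and 2.05 RPM (5.57-fold lower, 1.69 to 28.9). Members lower in WT TTC that were not called included Ddrgk1, the adaptor of the UFM1 ligase, with 10 and 2 reads, and Ltn1. Ufl1, the ligase itself, with 6 and 0 reads, and Cdk5rap3, its partner, with 9 and 0, were under the minimum of 10 reads. Rack1, a 40S scaffold that helps sense collided ribosomes, was the member called higher, at 23.9 RPM and 47.9 RPM (2.01, 1.38 to 2.95). With the libraries scaled to the same sum over the listed sites its ratio was 1.87 and it was no longer called. Vcp itself had 26.2 RPM and 47.2 RPM and was not called. Summed over all 17 members in the table, the RPM were 241 in WT SC and 225 in WT TTC, so the sum, carried by the higher sites, differed far less than the median. The same members had a median difference of -0.18 in the Ltn1 KO pair.

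Translation factors and ribosomal proteins gave calls near or under the background of 9.41% higher and 8.22% lower over all measured transcripts. Of 28 initiation factors, 0 were called higher and 2 lower: Eif4a3, an RNA helicase of the exon junction complex, at 17.2 RPM and 7.53 RPM, and Eif4h, a helper of eIF4A, at 32.0 RPM and 15.1 RPM. Of 34 cytosolic ribosomal proteins, 3 were higher and 2 lower, with a median of 0.15. Rplp0 (5.72 and 16.4 RPM), Rpl24 (8.11 and 21.9 RPM) and Rpl13a (40.6 and 86.3 RPM) were higher, and Rpl14 (21.0 and 8.90 RPM) and Rpl17 lower. Rpl17 had 26 reads in WT SC and 0 in WT TTC, at least 6.04-fold lower, so it was measured through WT SC alone. Ribosomal protein genes have many processed copies, and their values are uncertain for the reason given for the tubulins. For the 9 measured genes of the AKT and RhoA pathways, which TTC3 is known to act on, 1 was higher and 0 lower. Akt1 had 2 and 4 reads and was not measured.

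In the stress-responsive groups several of the calls, in both directions, were sites at 0 reads in 1 of the WT libraries. Such sites reached the minimum of 10 reads only through the library in which they were higher, so the counts depend in part on the filter. The counts below stand beside 9.41% called higher and 8.22% lower over all measured transcripts. Atf6, the ER stress sensor (chromosome 1, 170704457 to 170868585), had 37 reads in WT SC, 17.7 RPM (12.4 to 24.3), and 0 in WT TTC, at least 8.59-fold lower. It was the 1 called member of 16 in the ER stress list, whose median was 0.36. Hspa5, the main ER chaperone, had 33.9 RPM and 32.9 RPM. Among 15 measured targets of the integrated stress response, 2 were higher and 2 lower. Shmt2, a mitochondrial enzyme of folate metabolism, had 0 and 14 reads, and Psph, of serine synthesis, 0 and 11. Slc7a11, the cystine transporter, had 12 and 0 reads, and Nars, a tRNA synthetase, 28.1 RPM and 11.6 RPM. The 25 cytosolic chaperones held 3 higher and 0 lower, among them Dnajb1, an HSP40, with 0 and 18 reads (at least 8.61-fold higher), and Stub1, the ligase CHIP, with 21.9 RPM and 58.9 RPM (2.68, 1.85 to 3.93). Of 6 measured p53 targets 3 were higher: Bax, which opens the mitochondrial outer membrane, at 9.54 RPM and 26.0 RPM, Bbc3, its activator PUMA, with 0 and 13 reads, and Btg2, with 0 and 13 reads. Cdkn1a, the cell cycle inhibitor p21, had 12.4 RPM and 23.3 RPM and was not called. Of 32 proteasome subunits, 0 were higher and 1 lower.

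Synaptic and neuronal genes held calls in both directions, beside 9.41% called higher and 8.22% lower over all measured transcripts. Of 29 vesicle and SNARE genes, 2 were higher and 2 lower: Syngr3 and Napa, an adaptor of the SNARE-splitting ATPase (17.2 and 40.4 RPM), against Sv2b (14.8 and 4.79 RPM) and Syp, synaptophysin (32.4 and 13.01 RPM). Of 16 genes of GABA synthesis, reception and the inhibitory synapse, 2 were higher and 3 lower. The higher ones included Gad1, which makes GABA, at 15.7 RPM and 35.6 RPM (2.26, 1.43 to 3.61). The lower ones included Gabbr2, a GABA-B receptor subunit, at 21.5 RPM and 8.90 RPM and Gphn, gephyrin, at 14.8 RPM and 6.85 RPM. Gad2, the other GABA-synthesizing enzyme, had 10.5 RPM and 17.1 RPM and was not called. Gabrb1 had 46.3 RPM and 29.4 RPM, a ratio of 0.636 (0.434 to 0.920), short of the fold. Among 13 glutamate receptor and scaffold genes, 0 were higher and 2 lower, Gria2 with 16 and 1 reads and Dlg2 with 26 and 7. Of 23 voltage-gated channel and pump genes, 0 were higher and 2 lower, Scn2a with 14 and 1 reads and Atp2b2 with 45 and 12. Gria2, Dlg2, Scn2a and Sv2b had at least 10 reads only in WT SC, the library in which they were higher. The counts of these groups therefore depend in part on the filter. Of 39 tubulin and microtubule genes, 2 were higher and 1 lower, with Kif1b, a kinesin of vesicle transport, at 12.9 RPM and 45.2 RPM (3.51, 2.21 to 5.71). Of 30 Rab GTPases, 3 were higher, Rab7, Rab5c and Rab4b, and 3 lower, Rab9, Rab9b and Rab2b.

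In the metabolic groups the calls are again to be read beside 9.41% higher and 8.22% lower over all measured transcripts. Of 19 genes of cholesterol synthesis and uptake, 3 were higher and 1 lower. Stard4, a sterol carrier, had 1.91 RPM and 17.8 RPM (9.33, 3.24 to 36.8), and Mvk, mevalonate kinase, 0 and 12 reads, while Msmo1, a sterol demethylating oxidase, had 104 RPM and 51.4 RPM (2.02-fold lower, 1.54 to 2.66). Stard4 and Mvk had at least 10 reads only in WT TTC, the library in which they were higher. The count of higher calls therefore depends in part on the filter. Of 16 glycolysis genes 2 were higher, Pkm (37.2 and 83.5 RPM) and Pgam1 (42.5 and 92.4 RPM). Of 32 nuclear-encoded respiratory chain genes, 1 was higher and 2 lower.

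**Figure D3:**
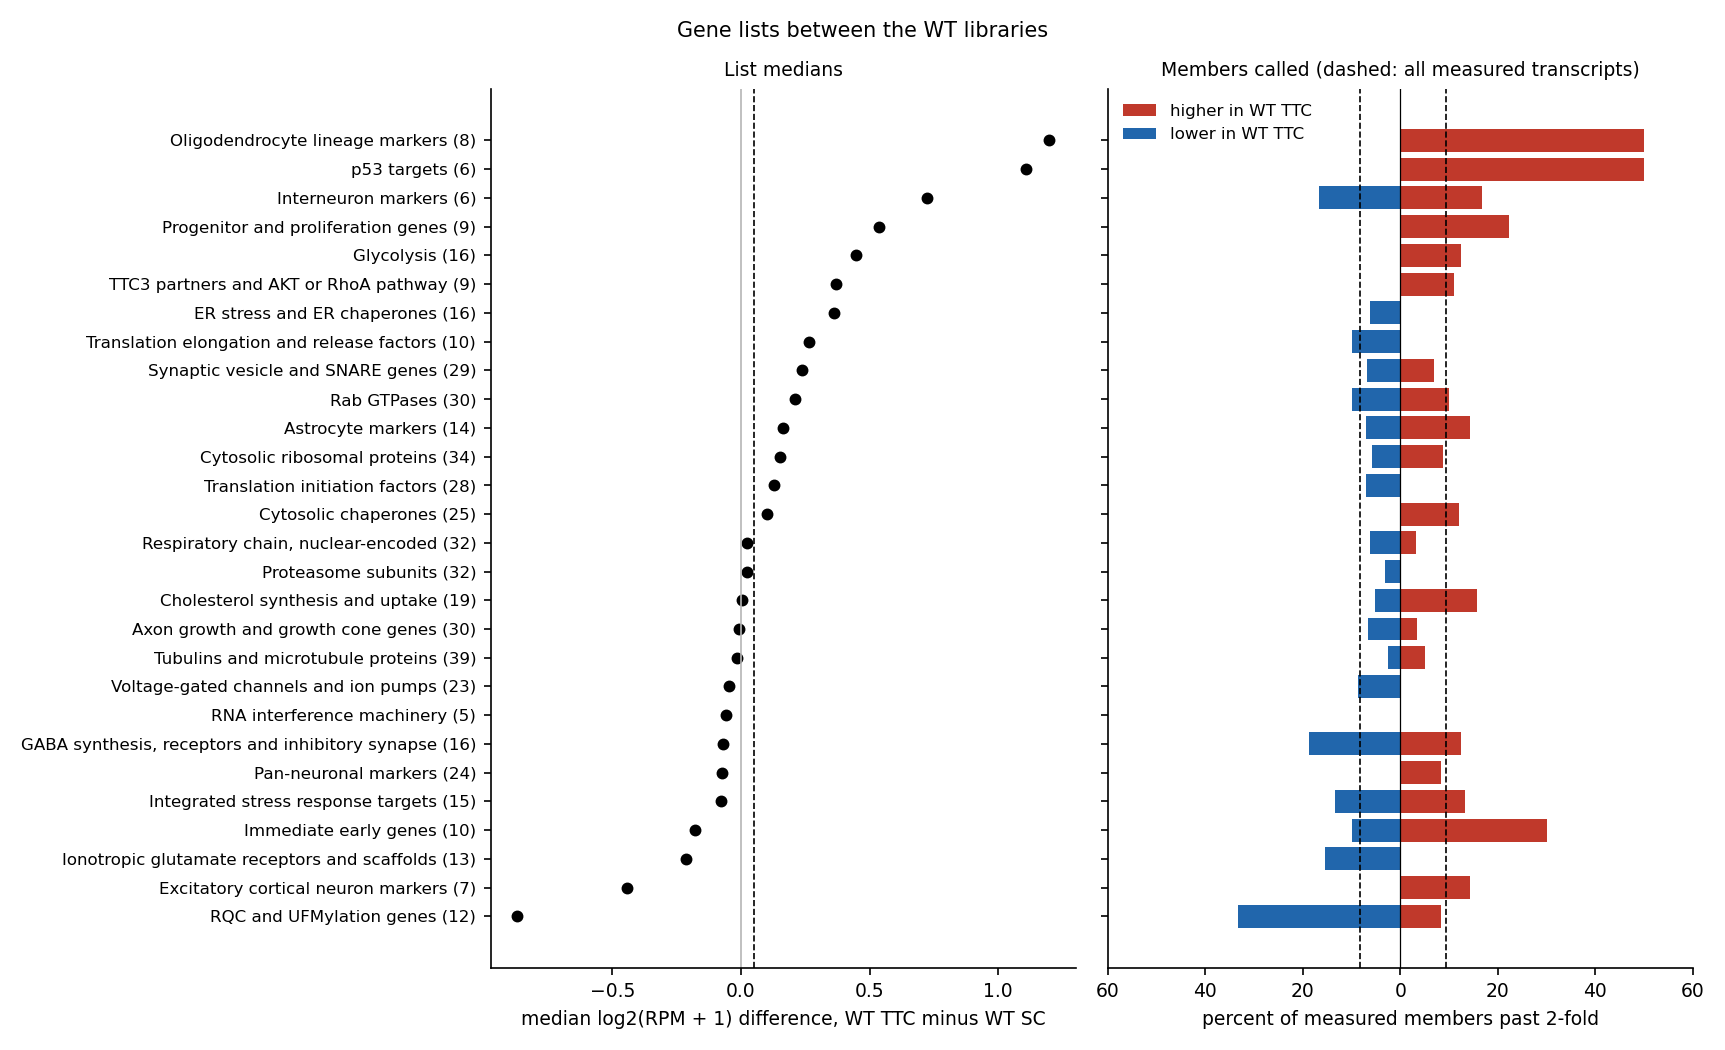
Median difference in log2(RPM + 1), WT TTC minus WT SC (left), and the percent of measured members called higher or lower (right), for the 28 gene lists with at least 5 measured members, whose number stands in parentheses. Dashed lines give the same values over all 3296 measured transcripts: RQC and UFMylation genes have the lowest median, -0.87, and oligodendrocyte lineage markers the highest, 1.20. In both of these lists some members were measured only through the library in which they were higher.

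Markers of oligodendrocytes, the myelinating glia, had the highest list median. Of 8 measured markers, 4 were called higher and 0 lower (9.41% and 8.22% of all measured transcripts), with a median difference of 1.20. Gpr17 and Enpp6 reached the minimum of 10 reads through WT TTC alone, the library in which they were higher. The count and the median therefore depend in part on the filter. The 13 markers in the table, measured or not, summed to 40.6 RPM in WT SC against 110 RPM in WT TTC. Gpr17, a receptor of committed oligodendrocyte precursors, had 0 reads in WT SC and 38 in WT TTC, 26.0 RPM, at least 18.2-fold higher. Enpp6, of newly formed oligodendrocytes, had 0 and 13 reads, and Pdgfra, the receptor of precursors, 2 and 8. The lineage factors were not called, with Olig1 at 7.63 RPM and 3.42 RPM and Olig2 at 7.63 RPM and 10.3 RPM, nor did Mbp, myelin basic protein, at 9.54 RPM and 15.7 RPM. Bcas1 and Cldn11 had 0 reads in both. Progenitor and proliferation genes held 2 higher and 0 lower of 9, Hes5, a Notch target (8.59 and 28.8 RPM), and Cdk4 (10.5 and 26.0 RPM), and summed to 92.6 RPM and 144 RPM. Astrocyte markers summed to 628 RPM and 707 RPM, with 2 of 14 higher and 1 lower, and Gfap at 18.1 RPM and 19.2 RPM. The 7 excitatory neuron markers had a median of -0.44 with 1 called, Slc17a6 with 0 and 10 reads, and Slc17a7, the main cortical glutamate transporter of vesicles, had 55.3 RPM and 40.4 RPM. Slc17a6 reached the minimum of 10 reads through WT TTC alone, the library in which it was higher. Its call and the median of this list therefore depend in part on the filter. Pan-neuronal markers summed to 3406 RPM and 3426 RPM, as a cortical neuron culture would carry, and the 2 microglial and endothelial markers in the table to 1.43 RPM and 0 RPM. More cells of a type and more RNA or initiation per cell cannot be told apart here. The part of these markers in the other differences was not tested.

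**Figure D4:**
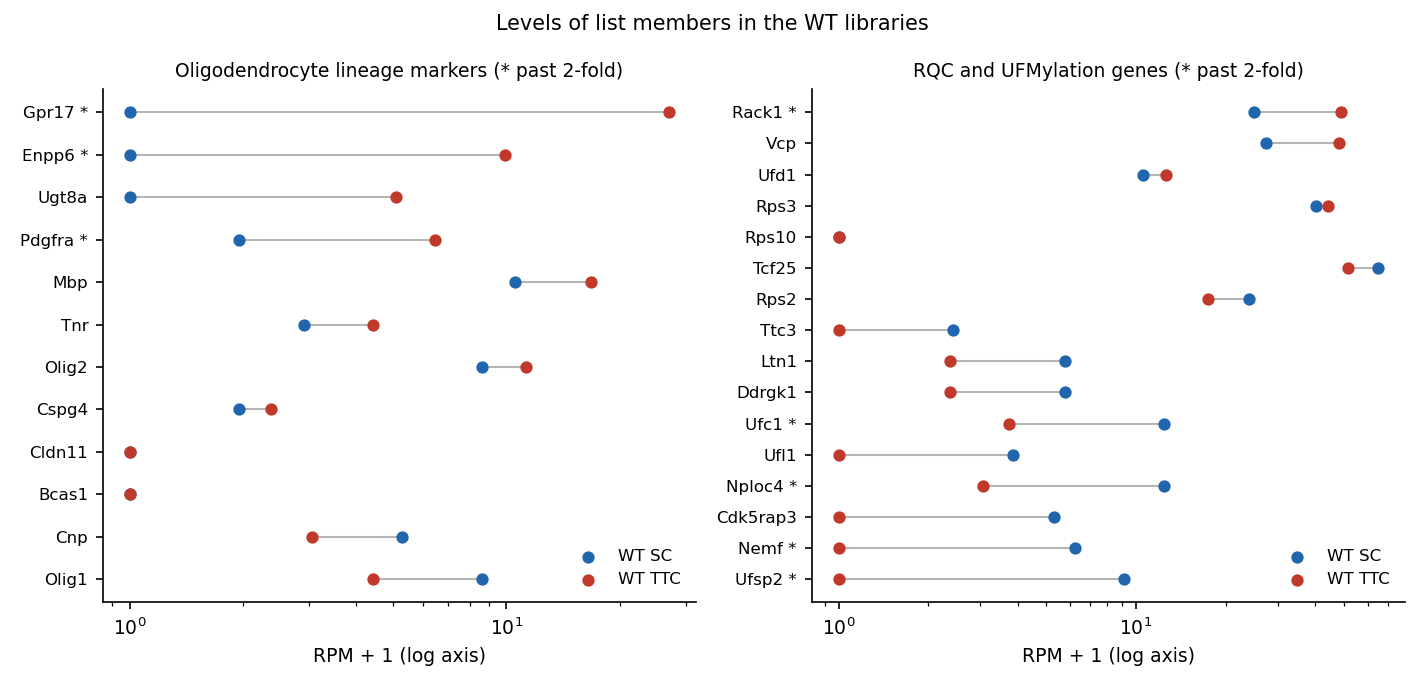
RPM + 1 (horizontal log axes) in WT SC and WT TTC of members of the oligodendrocyte list (left) and of the RQC and UFMylation list (right), joined by a line per gene, with called members starred. Gpr17 and Enpp6 lie far higher in WT TTC, whereas Ufsp2, Nemf, Nploc4 and Ufc1 lie lower.

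The same arms in Ltn1 KO neurons, KO TTC against KO SC, share no library with the WT pair and were set beside it. Of 3162 transcripts measured in both genotypes, 11.6% were called higher in KO TTC and 5.00% lower (13.8% and 5.6% of the 4034 measured in KO). Of 281 transcripts called higher in WT TTC and measured in KO, 99 (35.2%) were also called higher in KO TTC and 5 (1.78%) lower. Of 241 called lower, 61 (25.3%) were also called lower and 13 (5.39%) higher. Across the 3162 transcripts Pearson's r of the differences was 0.391 and Spearman's rho 0.344. Over the 718 at a mean of at least 20 RPM in WT the values were 0.533 and 0.490. These transcripts share 2 libraries per genotype and are not independent, so no p is given. What is common to the code in both genotypes, the RNAi or anything else handled with it, cannot be told apart. By the two-sided exact conditional test at an adjusted p of 0.05 the WT and KO ratios differed for 157 of the 3162 (4.97%), among them 1 of the 15 transcripts most raised in WT TTC, Selenos, and 6 of the 15 most lowered.

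All of the 15 transcripts most raised in WT TTC had the same sign in the KO pair, as did 60.8% of the transcripts measured in both genotypes, and 8 were called there too. Syngr3 went from 29.9 RPM in KO SC to 90.8 RPM in KO TTC (3.03, 2.37 to 3.92). Rab7 had 8.60 RPM and 33.1 RPM (3.85, 2.45 to 6.30), and Dbnl 12.7 RPM and 37.2 RPM. Gpr17 was again at 0 in the library coded SC, with 24 reads in KO TTC. Of the 15 most lowered in WT TTC, 12 had the same sign, which 39.2% of those measured in both had, and 7 were called: Necab3, Prepl, Eef1a2, Lrrtm1, Tuba4a, Kctd12 and Calb2. Prepl went from 37.4 RPM in KO SC to 14.8 RPM in KO TTC, Eef1a2 38.5 RPM and 13.1 RPM, and Calb2 43.4 RPM and 10.9 RPM. Ufc1 (11.2 and 2.74 RPM), Gad1 (8.60 and 27.9 RPM), Bax (6.36 and 16.4 RPM) and Hes5 (5.61 and 14.8 RPM) were called in the same direction as in WT. The oligodendrocyte markers summed to 12.3 RPM in KO SC against 49.2 RPM in KO TTC, with 5 of 8 called higher and 0 lower.

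**Figure D5:**
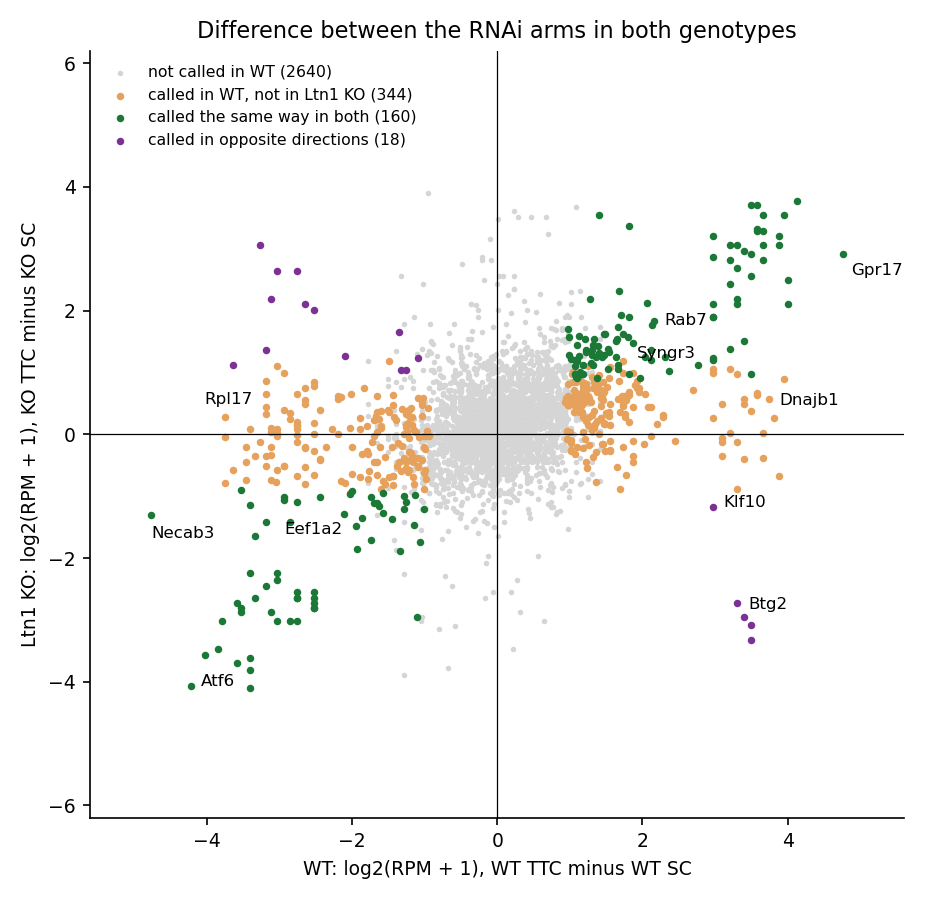
Difference in log2(RPM + 1) between the arms, TTC minus SC, in WT (horizontal axis) and in Ltn1 KO (vertical axis) for the 3162 transcripts measured in both, 1 point each, colored by the calls. The 160 transcripts called the same way fill the upper right and lower left, and the 18 called in opposite directions lie in the other corners.

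Many of the WT calls rested on sites at 0 reads in 1 library, and a share of these was at 0 under the same code in both genotypes. There were 88 transcripts with 0 reads in WT SC and at least 10 in WT TTC, 28.4% of the higher calls. In the KO pair, 33 of them had 0 reads in KO SC with reads in KO TTC, 5 had the reverse, 32 had reads in both and 18 in neither. Conversely, 126 transcripts had 0 reads in WT TTC and at least 10 in WT SC, 46.5% of the lower calls. WT TTC was the shallower library, with 1460425 reads against 2096153, so the 88 and the 126 are not counts at equal depth. Of these, 34 had 0 reads in KO TTC with reads in KO SC, 7 the reverse, 66 reads in both and 19 in neither. With at least 10 reads required in the other KO library, 29 of the 88 and 28 of the 126 kept the pattern. As a background at that minimum, 4.98% of the 4034 transcripts measured in KO had 0 reads in KO SC and at least 10 in KO TTC, and 2.13% the reverse. The background spans all levels, whereas the 88 and 126 were chosen for 0 reads in a WT library, so the shares are not matched for level. Atf6 was among the 28 transcripts with at least 10 reads in WT SC and KO SC and 0 in both libraries coded TTC, with 37 and 0 reads in the WT pair (SC, then TTC) and 42 and 0 in the KO pair. Slc7a11 had 12, 0, 19 and 0 in the same order. Chosen after their values were seen, Cfap97 had 32, 0, 29 and 0 and Nsun4, an rRNA methyltransferase of mitochondria, 20, 0, 43 and 0. Among the 29 with the mirror pattern, Gpr17 had 0, 38, 0 and 24 reads, Shmt2 0, 14, 0 and 25, and Bbc3 0, 13, 0 and 13. Gga2, a clathrin adaptor of the Golgi, with 0, 24, 0 and 46, and Ddx49, an RNA helicase, with 0, 16, 0 and 44, were likewise chosen after their values were seen. Each 0 allows up to 3 reads.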

How the data were processed

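Ribosome footprints of harringtonine-treated cortical neurons were compared between WT TTC and WT SC, with KO TTC and KO SC beside them, 1 library each. The deposited values are RPM per transcript, made by the authors. The submitters' processing notes name Bowtie, SAMtools, bedtools and GRCm38/mm10, without versions. The window counted, the annotation and the choice of transcripts are not given in the sources used here. Symbols came from the study's supplementary list, read from page images: 6313 transcripts matched directly and 38 after 1 extra zero was removed from the ID. Of these, 6231 had a symbol found in the reference tables, and the other 121 of the table are used by ID. Gene positions are those of RefSeq for GRCm38.

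From the RPM, whole reads were recovered (100% of values within 1e-06). Total reads were 2096153 (WT SC) and 1460425 (WT TTC), and for the KO pair 2673112 (SC) and 3655827 (TTC). Differences used log2(RPM + 1), which understates the change of low sites. Rate ratios have exact 95% intervals (Clopper-Pearson on the share of reads), with a library at 0 set to a floor of 3 reads, and no fold where both libraries had 3 reads or fewer. A call needed at least 10 reads over both libraries, a ratio of at least 2-fold and an interval that left out 1. WT and KO ratios were compared with a two-sided exact conditional test on the reads, Benjamini-Hochberg adjusted over 3162 transcripts. Intervals and tests cover counting error only. The 31 gene lists, the members and the rule for named genes were chosen with earlier results of these data known. The rule took Ttc3, Ltn1, Nemf and the genes the study names, the 15 largest called differences in each direction at a mean of at least 10 RPM, the 5 highest sites per WT library, up to 4 called members per list, and defining markers. Scripts were tested on simulated data. Tools were Python 3.11.15, numpy 2.4.6, pandas 2.3.3, scipy 1.17.1, matplotlib 3.10.9, R 4.3.3 and edgeR 4.0.16. Alternatives covered the scaling, filter, fold, pseudocount, transcript choice and test. Some genes that the rule names are not reported here.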

Additional observations from a re-analysis of the deposited data

Results flagged for a closer look

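For 157 of 3162 transcripts (4.97%) the ratio between the arms differed between WT and Ltn1 KO by the two-sided exact conditional test at an adjusted p of 0.05, which allows for counting error only. The named transcripts among them follow, each with its difference TTC minus SC in WT less that in KO, on the log2(RPM + 1) scale. WT was the lower of the pair for Ufsp2 (-4.06), Acsl6 (-4.13), Rpl17 (-4.03), Necab3 (-3.46), Ddrgk1 (-3.06), Mbp (-2.84) and Ap3m2 (-2.27). Smaller values of the same sign were those of Snapc1 (-1.84), ENSMUST00000020263.13 (-1.70), Atp6v1c1 (-1.69), Eif4a3 (-1.68), Gabrb1 (-1.35), Dnm1l (-1.17), Msmo1 (-0.97) and Tubb2a (-0.41). WT was the higher of the pair for Btg2 (6.03), Klf10 (4.15), Dnajb1 (3.17), Selenos (2.03), Stard4 (1.98), Kif1b (1.19), Tubb2b (0.36) and Tubb3 (0.22).

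Several of these rest on a library at 0. Ufsp2 had 17 and 0 reads in the WT pair (SC, then TTC) and 8 and 23 in the KO pair (adjusted p = 0.00426), in the same order Rpl17 26, 0, 26 and 44 (adjusted p = 0.000638) and Acsl6, a long-chain acyl-CoA synthetase, 15, 0, 4 and 16 (adjusted p = 0.00712). Mbp had 20, 23, 0 and 38, so the library at 0 was KO SC. Btg2, an antiproliferative p53 target, had 0, 13, 15 and 0, and Klf10, an immediate early transcription factor, 0, 10, 15 and 7, which are opposite calls. Others had reads in all 4 libraries. Atp6v1c1 had 30.1, 8.90, 25.8 and 26.5 RPM (adjusted p = 0.00863) and Gabrb1 46.3, 29.4, 13.1 and 22.2 RPM (adjusted p = 0.0137). Msmo1 stood at 104, 51.4, 37.8 and 36.9 RPM, with an adjusted p of 0.0126. Tubb2a and Tubb3, the sites with most reads, passed at small differences. What sets these pairs apart was not tested.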

How the results depend on the processing

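No paired analysis was possible because the labels give no replicate numbers that would pair libraries within WT, where each arm had 1 library. The edgeR fit used genotype as a term, so it compared the arms within genotype over both genotypes. The WT calls, 310 higher and 271 lower, became 184 and 144 with a filter of 20 reads and 195 and 156 with a fold of 3. With reads required in both WT libraries, an alternative chosen after seeing the data, 145 lower calls were left, and 222 higher ones. The edgeR fit gave 0 and 0 with deposited totals and with TMM, with smallest adjusted p of 0.163 and 0.22, and with TMM 231 higher and 221 lower at an unadjusted p under 0.05. Scaling to the same sum over listed sites shifted log2 ratios by -0.10 and gave 280 and 316, and median-of-ratios factors 277 and 324. A fold of 1.5, no filter, 1 transcript per symbol, leaving out mitochondrially encoded transcripts, and the exact binomial test kept both counts within 1.5 times. The median difference over all 6352 transcripts was 0, against 0.0522 at 10 reads or more and 0.103 at a mean of 5 RPM or more. Under each scaling 117 named ratios kept their call, and Rack1 and Uchl1 (1.87 and 1.91 with the same sum) fell under the fold. Depth limits sites under about 10 reads, where 0 reads and 3 cannot be told apart.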
